A study of Mus musculus with 4 samples.

Results

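The genes described here encode the machinery of oxidative phosphorylation: NADH dehydrogenase (complex I), succinate dehydrogenase (complex II), the cytochrome bc1 complex (complex III), cytochrome c oxidase (complex IV) and the ATP synthase (complex V). They were taken by symbol from the gene list of the deposited matrices (Nduf, Uqcr, Atp5, Cox4 to Cox8, the Sdh genes and the mitochondrially encoded mt-Nd, mt-Co, mt-Atp and mt-Cytb genes). Of 127 symbols that matched, 14 with a -ps or -rs suffix and 7 with fewer than 200 unique molecular identifiers (UMIs, 1 per captured RNA molecule) over the 4 libraries were dropped. This left 106 of the 55357 listed genes, of which 93 are nuclear and 13 mitochondrially encoded. Just inside the limit were Cox6a2 with 213 UMIs and Cox8b with 247, and just outside it was Cox6c2 with 92. The rule also takes in 8 Ndufaf genes, which assemble complex I without being part of it, and Ndufb4c, a near-copy of Ndufb4 whose place in a complex is unclear. The other nuclear genes comprised 37 for complex I, 4 for complex II, 8 for complex III, 18 for complex IV and 17 for complex V.

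In oxidative phosphorylation, complexes I and II take electrons from NADH and succinate, complexes III and IV pass them on to oxygen, and the proton gradient that complexes I, III and IV build drives the ATP synthase. Most subunits are made in the cytosol from nuclear genes and imported, while a small core is transcribed from both strands of the mitochondrial genome, so each complex except complex II needs products of both genomes. Contractile cells of the arterial wall use this system beside glycolysis, and activated macrophages are known for shifting between the pathways.

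The data were droplet-based 3′ single-cell RNA sequencing libraries made from ascending aortas of wild-type males (mouse). All mice received β-aminopropionitrile (BAPN), an inhibitor of the cross-linking of collagen and elastin that leads to aortic dissection, at 1 g/kg per day in drinking water for 4 weeks from 3 weeks of age. The AD-ABR group (2 libraries) was also given paquinimod (ABR 25757), a small molecule that binds the S100A9 protein, at 10 mg/kg per day by gavage, and the AD group (2 libraries) had the dissection model alone. No mice without BAPN were analysed here, and the labels do not say whether the libraries of a group came from separate or pooled animals, so p-values measure only the spread between these libraries.

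The libraries held 93575612 and 98946431 UMIs in AD-ABR and 76142840 and 99572011 in AD, from 8451 and 9872 kept cells in AD-ABR and 9154 and 9782 in AD. Depth per cell was higher in AD-ABR (medians of 9452 and 8205 UMIs) than in AD (medians of 5272 and 7190). Rn18s-rs5, a ribosomal RNA sequence, took 1.83 and 1.37% of UMIs in AD-ABR and 5.35 and 3.21% in AD. Between 22 and 38 cell barcodes were shared by each pair of libraries. Cells were grouped without using any of the 106 genes, and classes were named from marker lists with the ending -like; these rebuilt names may differ from the authors' own. AD-ABR had 3507 and 2824 smooth muscle-like cells against 882 and 1924 in AD, and 439 and 954 macrophage-like cells against 1754 and 945 in AD.

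Smooth muscle-like cells carried the highest mean share of RNA from these genes among the 6 named classes with at least 50 cells in every library. The 13 mitochondrially encoded genes took 1.84 and 1.77% of their UMIs in AD-ABR and 1.53 and 1.89% in AD, above every library of any other of these classes. Endothelial-like cells followed with 0.951 to 1.13% over the 4 libraries, and the chondrocyte-like cells at 0.936 to 1.11% overlapped them. Macrophage-like cells at 0.635 to 0.927% and fibroblast-like cells at 0.685 to 0.796% also overlapped each other, and dendritic-like cells were lowest at 0.519 to 0.558% with no overlap with the rest. Of the 6 classes, smooth muscle-like cells had the highest mean level of each of the 13 genes. There mt-Cytb, the cytochrome b of complex III, averaged 6251 CPM (UMIs of the gene per 1000000 UMIs of the class in a library), against 1427 CPM in dendritic-like cells. Among unnamed clusters, cluster 19, whose cells were shallow, had a higher mean share, with 2.36 and 1.31% in AD-ABR and 2.19 and 2.21% in AD. Cluster 15, led by Rgs5, overlapped smooth muscle-like cells, with 1.75 and 1.51% in AD-ABR and 1.55 and 1.74% in AD. Pericyte-like cells, with 16 to 56 cells a library, had 2.11 and 2.03% in AD-ABR and 1.23 and 1.73% in AD. Their mean was 1.78%, beside 1.76% in smooth muscle-like cells, so a high share was not particular to the latter. These levels are descriptions of classes formed from the same cells.

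The nuclear genes spread less between classes and in a different order. They took 1.81 to 2.09% of UMIs in smooth muscle-like cells, 1.58 to 1.72% in dendritic-like cells, 1.43 to 1.81% in endothelial-like cells, 1.35 to 1.78% in chondrocyte-like cells, 1.47 to 1.62% in macrophage-like cells and 1.40 to 1.63% in fibroblast-like cells. Neighbouring classes in this order overlapped from dendritic-like cells downward, and the highest endothelial-like library reached the lowest smooth muscle-like one. Pericyte-like cells, with 16 to 56 cells a library, had a nuclear share of 3.29 and 3.67% in AD-ABR and 1.99 and 2.50% in AD. Proliferating cells, with 35 to 295 cells a library, had 1.89 to 2.10%, with a mean of 2.03% beside 1.92% in smooth muscle-like cells. Neutrophil-like cells, with 10 to 1632 cells a library, had 2.13 and 2.18% in AD-ABR and 1.11 and 1.73% in AD. Smooth muscle-like cells therefore had 0.959 to 1.19 nuclear UMIs per mitochondrially encoded UMI, and dendritic-like cells 3.02 to 3.27. Among the named classes with at least 50 cells in every library, 46 of the 93 nuclear genes had their highest mean in smooth muscle-like cells and 19 in dendritic-like cells. Ndufa11, an accessory subunit of complex I, averaged 287 CPM in smooth muscle-like cells and 95.2 CPM in macrophage-like cells. Ndufa6, another accessory subunit, was placed the other way, with 419 CPM in dendritic-like cells and 158 CPM in fibroblast-like cells, and Cox5a, a nuclear subunit of cytochrome c oxidase, had 378 and 161 CPM in the same classes.

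**Figure D1:**
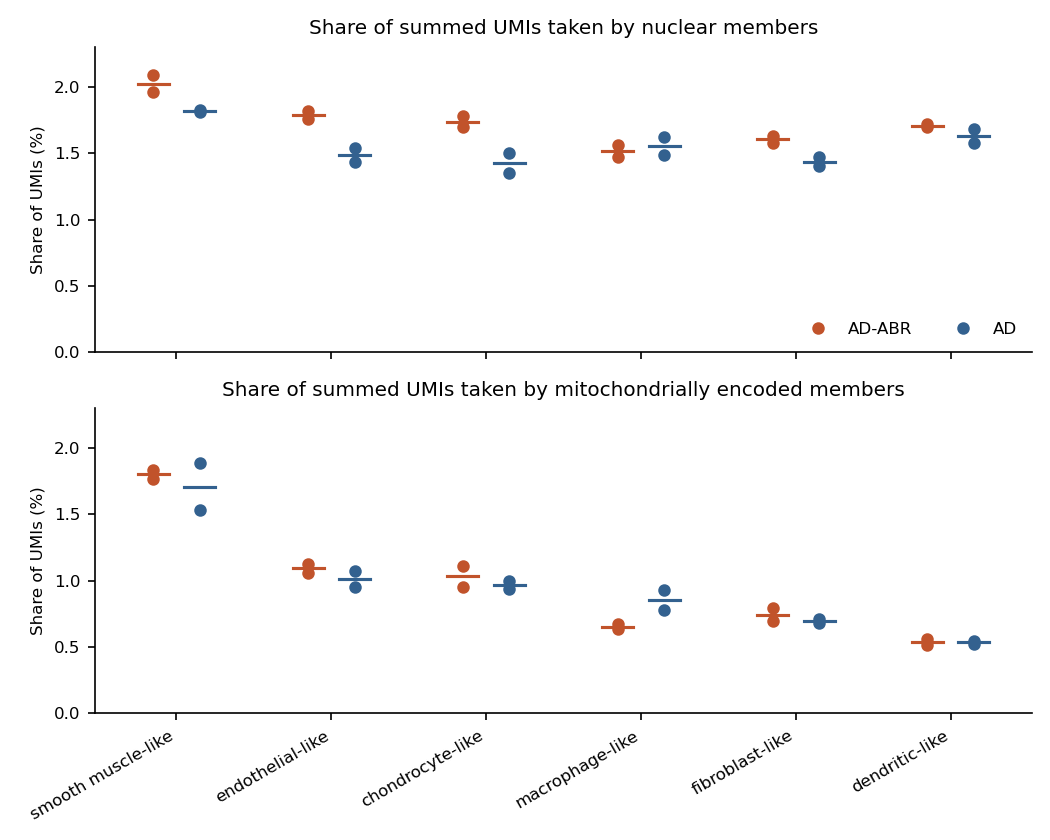
Share of summed UMIs (%, y axis) taken by the 93 nuclear genes (upper panel) and the 13 mitochondrially encoded genes (lower panel) in 6 cell classes (x axis), with 1 point per library, AD-ABR left of AD, and a line at the mean of 2 libraries. The AD-ABR libraries lie above both AD libraries for the nuclear share in smooth muscle-like, endothelial-like, chondrocyte-like, fibroblast-like and dendritic-like cells, and below them for the mitochondrially encoded share in macrophage-like cells.

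A pair of isoforms had restricted patterns. Ndufa4l2 (ENSMUSG00000040280; chromosome 10, 127514967 to 127517154, plus strand, GRCm38) is the hypoxia-inducible relative of Ndufa4, a subunit of cytochrome c oxidase. It was highest in pericyte-like cells, with 612 and 801 CPM in AD-ABR and 281 and 412 CPM in AD, from 16 to 56 cells a library. There it made up 52.6% (exact 95% interval 43.9 to 61.1) and 49.7% (41.2 to 58.1) of the UMIs of Ndufa4l2 and Ndufa4 together in AD-ABR, against 39.2% (31.3 to 47.5) and 42.2% (37.4 to 47.0) in AD; the intervals cover counting error only. The unnamed clusters 8 and 2, which carry fibroblast markers below the limit for a name, averaged 245 and 242 CPM of Ndufa4l2, and fibroblast-like cells had 282 and 271 CPM in AD-ABR and 137 and 181 CPM in AD, overlapping both clusters. Cluster 19 varied from 27.8 to 1270 CPM between libraries. Chondrocyte-like cells had 88.6 and 112 CPM of Ndufa4l2 in AD-ABR and 24.4 and 68.9 CPM in AD. In smooth muscle-like cells Ndufa4l2 was at 1.85 and 1.72 CPM in AD-ABR and 0.660 and 1.86 CPM in AD, and in macrophage-like cells at 2.15 and 2.99 CPM in AD-ABR and 1.87 and 1.03 CPM in AD, so it was near 0 in both classes.

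Cox4i2, the form of cytochrome c oxidase subunit 4 that is known from hypoxia-sensing cells and lung (ENSMUSG00000009876; chromosome 2, 152754173 to 152765037, plus strand, GRCm38), was high in pericyte-like cells too, at 170 and 237 CPM in AD-ABR and 82.3 and 128 CPM in AD. Cluster 15, an unnamed cluster led by Rgs5, had 83.2 and 79.9 CPM of Cox4i2 in AD-ABR and 77.4 and 52.3 CPM in AD. Chondrocyte-like cells, the highest of the 6 classes for Cox4i2, had 35.9 and 21.6 CPM in AD-ABR and 84.1 and 38.8 CPM in AD, and cluster 19 varied from 5.06 to 466 CPM between libraries. Smooth muscle-like cells held 21.2 and 23.1 CPM in AD-ABR and 17.6 and 22.9 CPM in AD, which was 1.95 to 2.40% of the UMIs of Cox4i2 and Cox4i1 together. Endothelial-like cells had 3 and 1 UMIs of Cox4i2 in AD-ABR and 0 and 1 in AD, which allows up to 1.75 CPM in the AD library with none. The muscle forms Cox7a1, Cox6a2 and Cox8b were near 0 in smooth muscle-like cells: Cox7a1 had 1.26 and 1.75 CPM in AD-ABR and 2.77 and 1.35 CPM in AD. Cox6a2 had 0 and 0.859 CPM in AD-ABR and 1.45 and 0.0641 CPM in AD. Cox8b had 0.103 and 0.608 CPM in AD-ABR and 0.792 and 0 CPM in AD. Cox6b2, known as the testis form, had 7.67 and 9.87 CPM in AD-ABR and 8.05 and 9.68 CPM in AD smooth muscle-like cells and averaged 14.8 ± 0.861 CPM in fibroblast-like cells (SD, 4 libraries).

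**Figure D2:**
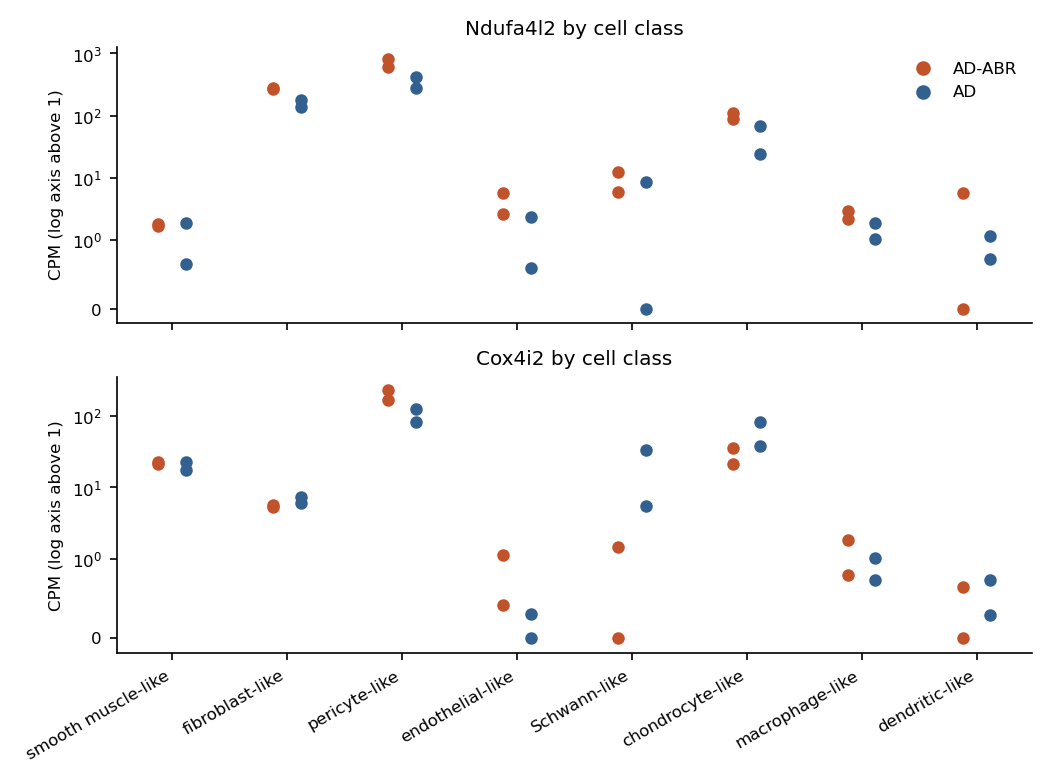
Level of Ndufa4l2 (upper panel) and Cox4i2 (lower panel) in CPM (y axis, logarithmic above 1 CPM and linear below) by cell class (x axis), with 1 point per library and AD-ABR left of AD. Of the classes shown, both genes have their highest mean in pericyte-like cells; Ndufa4l2 is above 100 CPM in fibroblast-like cells and below 2 CPM in smooth muscle-like cells, where Cox4i2 lies between 17.6 and 23.1 CPM.

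In smooth muscle-like cells the nuclear genes past the test had a single direction: 17 of 93 were higher in AD-ABR and 0 lower (edgeR's quasi-likelihood test on UMIs summed per library, Benjamini-Hochberg adjusted p under 0.05 over 14800 genes). The members' share called higher was 18.3%, beside 7.18% of all genes called higher and 8.26% called lower. Both AD-ABR libraries lay above both AD libraries for 57 of the 93 genes and below both for 4, against 23.6% and 38% of all genes. The median log2 fold change (AD-ABR minus AD) was 0.22 over the 93 genes and −0.02 over all genes tested, and 86 of the 93 were positive. The summed share of UMIs was 1.96 and 2.09% in AD-ABR and 1.83 and 1.81% in AD; these did not overlap, and an exact two-sided permutation test gave p = 0.333, the smallest that 2 libraries against 2 allow. With 1 library left out, the difference in this share (AD-ABR minus AD) ran from 0.139 to 0.268 percentage points. The count of 17 fell without AD library 1 or AD-ABR library 2. It rose without AD library 2, where the calls no longer had a single direction. It was 8 with either other limit on the mitochondrial share of a cell and 9 when these genes took part in the clustering.

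Of the 37 nuclear complex I genes, which feed electrons from NADH into the chain, 9 were higher (24.3%, beside 7.18% of all genes). In that direction 26 had non-overlapping libraries (70.3%, beside 23.6% of all genes). Ndufab1, the mitochondrial acyl carrier protein that is also a complex I subunit (ENSMUSG00000030869; chromosome 7, 122085403 to 122101886, minus strand, GRCm38), had 123 and 132 CPM in AD-ABR against 83.0 and 95.2 CPM in AD. Both AD-ABR libraries were above both AD libraries, and the log2 fold change was 0.58 ± 0.12 (SE) with an adjusted p of 0.00356 in edgeR. Ndufa12, an accessory subunit, had 90.8 and 96.4 CPM in AD-ABR and 65.5 and 74.4 CPM in AD, with a log2 fold change of 0.49 ± 0.12 (adjusted p = 0.0104). Ndufs5, a small accessory subunit, had 179 and 190 CPM in AD-ABR and 140 and 146 CPM in AD, and rose by 0.44 ± 0.11 on the log2 scale (adjusted p = 0.0145). For both genes the groups stood apart. Of the 50-base words of the last 400 transcript bases, 28.1% for Ndufa12 and 42.6% for Ndufs5 also occur in annotated copies. For Ndufs3, named below, this share was 25.2%. Ndufv2, a core iron-sulfur subunit of the NADH-binding arm, had 132 and 149 CPM in AD-ABR and 98.5 and 124 CPM in AD (0.40 ± 0.13, adjusted p = 0.0481). Ndufb4, an accessory subunit, had 32.3 and 36.7 CPM in AD-ABR and 31.8 and 23.5 CPM in AD, the narrowest gap of those named here (0.42 ± 0.14, adjusted p = 0.0475). The core subunits Ndufs3 and Ndufs8 and the accessory subunits Ndufb8 and Ndufs4 also rose, with the 7 called genes outside the 10 largest lying between 0.34 and 0.38 on the log2 scale. Ndufs1, the largest core subunit, ran the other way without passing: 29.8 and 29.6 CPM in AD-ABR and 37.7 and 34.99 CPM in AD (−0.21 ± 0.12, adjusted p = 0.216).

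Among the 8 assembly factors of complex I within the rule, Ndufaf4 was the one past the threshold (ENSMUSG00000028261; chromosome 4, 24898083 to 24905001, plus strand, GRCm38). Ndufaf4, which acts in building the arm of complex I that reaches into the matrix, had 29.9 and 28.8 CPM in AD-ABR and 19.5 and 19.6 CPM in AD. The replicates were close together and the groups well apart, with a log2 fold change of 0.65 ± 0.12 and the smallest adjusted p of the nuclear genes, 0.0021. As 1 of 8, Ndufaf4 made up 12.5% of these factors, beside 7.18% of all genes called higher.

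In complex II, the succinate dehydrogenase, 2 of 4 genes passed (50%, beside 7.18% of all genes called higher). Whether the changes of its subunits differed from each other was not tested. Sdhb, the iron-sulfur subunit (ENSMUSG00000009863; chromosome 4, 140961203 to 140979193, plus strand, GRCm38), had 98.1 and 107 CPM in AD-ABR and 72.1 and 82.6 CPM in AD (0.47 ± 0.12, adjusted p = 0.0134). Sdhd, one of the membrane anchors, had 46.8 and 55.2 CPM in AD-ABR and 39.7 and 40.9 CPM in AD (0.41 ± 0.12, adjusted p = 0.0322). Both stood apart between groups, whereas the catalytic flavoprotein and the other anchor did not pass. Sdha, that flavoprotein, had 74.6 and 74.0 CPM in AD-ABR and 78.8 and 82.0 CPM in AD (−0.04 ± 0.11, adjusted p = 0.834), and Sdhc had 100.1 and 102 CPM in AD-ABR and 105 and 102 CPM in AD (0.04 ± 0.11, adjusted p = 0.826). The log2 changes also take the test's scaling of library totals, which CPM do not, so their signs can differ. The same order held in fibroblast-like cells, where none of the 4 passed: Sdhb at 96.5 and 98.8 CPM in AD-ABR and 67.7 and 85.9 CPM in AD (0.41 ± 0.14) and Sdha at 57.1 and 59.6 CPM in AD-ABR and 66.4 and 67.4 CPM in AD (−0.12 ± 0.12).

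In complex III, 1 of 8 genes passed (12.5%, beside 7.18% of all genes called higher). This was Uqcrfs1, the Rieske iron-sulfur protein, with 82.8 and 90.6 CPM in AD-ABR and 70.2 and 73.5 CPM in AD (0.34 ± 0.11, adjusted p = 0.0498). Of the 8 genes 7 had non-overlapping libraries with AD-ABR higher (87.5%, beside 23.6% of all genes). In complex IV 0 of 18 passed, and 7 of the 18 stood apart with AD-ABR higher (38.9%, beside 23.6% of all genes). Cox4i1, its common subunit 4, had 971 and 1056 CPM in AD-ABR and 884 and 932 CPM in AD (0.23 ± 0.12, adjusted p = 0.208), and Ndufa4 had 633 and 685 CPM in AD-ABR and 578 and 567 CPM in AD (0.28 ± 0.12, adjusted p = 0.115). For both genes AD-ABR lay above AD in each library, and neither passed.

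In complex V, the ATP synthase, 4 of 17 passed (23.5%, beside 7.18% of all genes called higher). Atp5g2 (ENSMUSG00000062683; chromosome 15, 102662864 to 102672352, minus strand, GRCm38) and Atp5g1 encode the same subunit c, which forms the rotating ring, from different genes. Atp5g2 had 13.5 and 17.4 CPM in AD-ABR and 10.7 and 9.55 CPM in AD (0.69 ± 0.16, adjusted p = 0.00853), but 51.4% of the 50-base words of its last 400 transcript bases also occur in annotated copies, so its counts are uncertain. Atp5g1 had 266 and 296 CPM in AD-ABR and 204 and 230 CPM in AD (0.45 ± 0.12, adjusted p = 0.0203), and 39.9% of such words of Atp5g1 occur in other annotated genes. The groups did not overlap for either gene. Atp5g3, the remaining gene for subunit c, had 228 and 246 CPM in AD-ABR and 225 and 224 CPM in AD and did not pass (0.16 ± 0.11, adjusted p = 0.373). Atp5j, the coupling factor 6 of the stalk, had 434 and 478 CPM in AD-ABR and 367 and 371 CPM in AD (0.38 ± 0.12, adjusted p = 0.0367), and Atp5c1, the central shaft subunit gamma, had 296 and 337 CPM in AD-ABR and 255 and 261 CPM in AD (0.37 ± 0.12, adjusted p = 0.043).

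**Figure D3:**
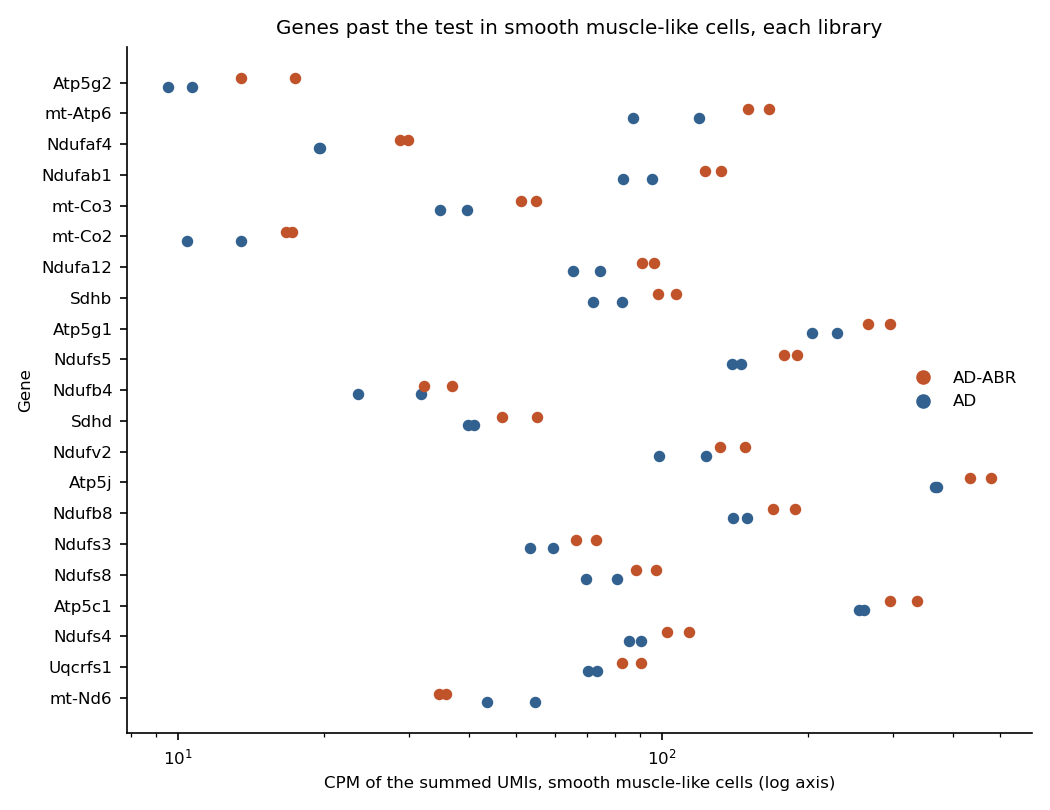
Level in CPM (x axis, logarithmic) of the 21 genes past the test in smooth muscle-like cells (y axis, ordered by log2 fold change, largest at the top), with 1 point per library and AD-ABR above AD in each row. AD-ABR lies to the right of AD for all genes shown except mt-Nd6 at the bottom, and the groups do not overlap in any row.

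RNA quality and translation genes moved in the same cells. Of 17 genes of RNA quality and dissociation stress, 8 were lower in AD-ABR smooth muscle-like cells (47.1%, beside 8.26% of all genes) and 0 higher: Rn18s-rs5 took 2.04 and 1.59% of their UMIs in AD-ABR and 6.19 and 4.07% in AD. Of 85 genes for cytosolic ribosomal proteins, a list added after values had been seen, 14 were higher (16.5%, beside 7.18% of all genes) and 0 lower, with a median log2 fold change of 0.30. Both AD-ABR libraries lay above both AD libraries for 67 of the 85 (78.8%, beside 61.3% of the 93 nuclear genes). In endothelial-like, macrophage-like and dendritic-like cells this share was 80.5, 29.3 and 43.9%, beside 75.9, 21.1 and 35.6% of the nuclear genes. In fibroblast-like cells it was 17.1%, beside 54.9%. In fibroblast-like, macrophage-like and dendritic-like cells 2 of the 17 quality genes were lower in each, Rn18s-rs5 and Lars2. That is 11.8% of the list, beside 2.8, 4.27 and 0.773% of all genes in the same order. Of the ribosomal protein genes 5 of 82 were higher in endothelial-like cells (6.1%, beside 1.43% of all genes). In macrophage-like cells 1 of 82 was higher (1.22%, beside 3.97%). In fibroblast-like and in dendritic-like cells 0 of 82 were higher, beside 2.26 and 0.392% of all genes. Both groups of genes thus shifted beside the 17 nuclear genes, and their part in that result was not tested. When mt- genes and Rn18s-rs5 were left out of the totals, the count stayed 17. That fit kept the other quality genes and the ribosomal protein genes, so it does not test their part. Within clusters 0 and 1, which make up this class, 8 and 4 nuclear genes passed; cluster 1 held 29.3 and 48.3% of the class in AD-ABR and 22.0 and 24.5% in AD.

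Promoter sequences were compared because nuclear respiratory factor 1 (NRF1) is a known activator of genes of this kind. RefSeq promoters on GRCm38.p6 were matched for 76 of the 93 nuclear genes, as the 250 bases before and 50 after the start. The full NRF1 palindrome, GCGCA followed by its reverse complement TGCGC and searched on both strands, occurred in 7 of the 76 (9.21%) and in 290 of all 27025 genes with a promoter (1.07%). The letters CCGGAAG, bound by GABPA, occurred in 19 of the 76 (25%) and in 9.93% of all genes, and ACGTG, the core of a hypoxia response element, in 19 (25%) and 21.8% of all genes. The 5 genes below carry the NRF1 letters before their start, shown in capitals with up to 45 bases on either side, 5′ to 3′ along the gene's strand. A match describes the letters and is not evidence of binding.
Ndufaf4: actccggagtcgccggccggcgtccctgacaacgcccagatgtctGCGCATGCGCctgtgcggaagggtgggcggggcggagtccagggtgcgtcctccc
Atp5g2: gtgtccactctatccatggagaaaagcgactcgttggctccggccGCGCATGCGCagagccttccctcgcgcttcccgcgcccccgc
Cox6a1: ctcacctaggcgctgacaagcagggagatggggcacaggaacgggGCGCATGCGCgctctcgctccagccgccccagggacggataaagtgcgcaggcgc
Ndufa11: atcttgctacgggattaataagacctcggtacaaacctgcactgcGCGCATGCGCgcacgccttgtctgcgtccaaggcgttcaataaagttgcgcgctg
Atp5k: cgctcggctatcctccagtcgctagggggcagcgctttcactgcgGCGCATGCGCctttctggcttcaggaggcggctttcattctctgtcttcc

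These stretches lie at chr4:24897925-24898024 for Ndufaf4 (plus strand), chr15:102671048-102671134 for Atp5g2 (minus), chr5:115349066-115349165 for Cox6a1 (minus), chr17:56717657-56717756 for Ndufa11 (plus) and chr5:108434400-108434494 for Atp5k (minus). The letters begin 113, 42, 162, 60 and 50 bases before the start in the same order. Ndufaf4 and Atp5g2 had the largest changes of the nuclear genes past the test in smooth muscle-like cells, while Cox6a1 (0.16), Ndufa11 (0.14) and Atp5k (−0.11 on the log2 scale) did not pass. Ndufaf5 and Uqcrc1 carry the letters after the start and did not pass either, at 0.05 and 0.22. Carriers of these letters thus differed widely in their change.

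Of the 13 mitochondrially encoded genes in smooth muscle-like cells, 3 were higher in AD-ABR (23.1%, beside 7.18% of all genes) and 1 lower (7.69%, beside 8.26%). Libraries stood apart for 23.1% of the 13 with AD-ABR higher and for 7.69% with AD-ABR lower. Over all genes these shares were 23.6% and 38%, so the lower call and the count apart were near or below those of all genes. mt-Atp6, a proton channel subunit of the ATP synthase (ENSMUSG00000064357; mitochondrial genome, 7927 to 8607, plus strand), had 151 and 166 CPM in AD-ABR and 87.0 and 119 CPM in AD (0.68 ± 0.15, adjusted p = 0.0082). mt-Co3, a core subunit of cytochrome c oxidase, had 55.0 and 51.1 CPM in AD-ABR and 34.8 and 39.6 CPM in AD (0.57 ± 0.12, adjusted p = 0.00413). mt-Co2, the subunit that accepts electrons from cytochrome c, had 16.8 and 17.2 CPM in AD-ABR and 10.4 and 13.5 CPM in AD (0.54 ± 0.15, adjusted p = 0.023). The groups did not overlap for these 3 genes, but 99.1, 99.7 and 100% of the 50-base words of their last 400 bases also occur in annotated nuclear copies, so reads may have been split or dropped and the counts are uncertain. The shares were as high, at 100, 98.0 and 98.8%, for mt-Co1, mt-Nd3 and mt-Nd4l, which did not pass. mt-Nd6, the one subunit read from the other strand of the mitochondrial genome (ENSMUSG00000064368; 13552 to 14070, minus strand), fell, with 35.8 and 34.6 CPM in AD-ABR and 43.6 and 54.6 CPM in AD (−0.42 ± 0.13, adjusted p = 0.0338), and shares no such word with a copy.

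The abundant mitochondrial transcripts did not separate the groups. mt-Cytb had 6330 and 6782 CPM in AD-ABR and 5169 and 6722 CPM in AD (0.21 ± 0.16, adjusted p = 0.373), and mt-Nd4, a proton-pumping subunit of complex I, had 2843 and 2581 CPM in AD-ABR and 2365 and 2826 CPM in AD (0.14 ± 0.14, adjusted p = 0.542). mt-Nd2 had 3629 and 3380 CPM in AD-ABR and 2632 and 3930 CPM in AD (0.16 ± 0.18, adjusted p = 0.566). For these 3 genes AD library 1 was the low one and the groups overlapped. The remaining 6 (mt-Nd1, mt-Nd3, mt-Nd4l, mt-Nd5, mt-Co1 and mt-Atp8) lay between −0.11 and 0.12 on the log2 scale, and their groups overlapped too; mt-Atp8 and mt-Nd4l share bases with mt-Atp6 and mt-Nd4, which 3′ reads do not keep fully apart. The summed share overlapped too, at 1.84 and 1.77% in AD-ABR and 1.53 and 1.89% in AD (exact p = 1), and its direction turned without AD library 1, from a difference of 0.0953 to one of −0.0836 percentage points.

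In fibroblast-like cells 2 of 91 tested nuclear genes were higher in AD-ABR (2.2%), near the 2.26% of all genes called higher. Of the 91, 0 were lower, beside 2.8% of all genes called lower. The median log2 fold change of the nuclear genes was 0.22 against −0.02 over all genes. Of them 50 stood apart with AD-ABR higher and 6 with AD-ABR lower, against 22% and 36.7% of all genes. Ndufa4l2, with the values given above, rose by 0.86 ± 0.16 on the log2 scale (adjusted p = 0.0216). Ndufab1 had 89.3 and 80.5 CPM in AD-ABR and 61.0 and 62.7 CPM in AD (0.53 ± 0.12, adjusted p = 0.0411). Both genes stood clear of the AD libraries. The nuclear share was 1.63 and 1.58% in AD-ABR and 1.40 and 1.47% in AD, without overlap (exact p = 0.333). With 1 library left out, the difference in this share ran from 0.138 to 0.201 percentage points. The number of nuclear genes called fell without either AD-ABR library and rose without either AD library.

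The clusters that make up the fibroblast-like class differed between the groups. Cluster 3, led by Myoc, held 29.0 and 37.1% of the class in AD-ABR and 72.6 and 64.1% in AD, and cluster 7, led by Inmt, held 42.0 and 34.0% in AD-ABR and 9.93 and 17.6% in AD. Ndufa4l2 within cluster 3 was 154 and 133 CPM in AD-ABR and 119 and 108 CPM in AD, and within cluster 10, a shallow cluster, 447 and 431 CPM in AD-ABR and 232 and 407 CPM in AD. Its log2 fold change within clusters 3, 7 and 10 was 0.38, 0.34 and 0.47, none past the threshold (adjusted p = 0.242, 0.50 and 0.492), so the change over the class was larger than within any of its clusters. Of the mitochondrially encoded genes 1 of 13 was higher in AD-ABR (7.69%, beside 2.26% of all genes) and 0 lower. This was mt-Atp6, with 61.7 and 58.9 CPM in AD-ABR and 38.0 and 40.0 CPM in AD (0.70 ± 0.13, adjusted p = 0.0183). The same reserve about copies holds, and the call was lost without either AD-ABR library. mt-Nd6 had 13.3 and 13.7 CPM in AD-ABR and 18.9 and 23.8 CPM in AD (−0.60 ± 0.17, adjusted p = 0.0675).

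In endothelial-like cells 0 of 87 tested nuclear genes passed, beside 1.43% of all genes called higher and 3.85% called lower, and DESeq2 also called 0. An unadjusted p under 0.05 was reached by 18 of the 87, a share close to that of all genes (2242 of 10748). Both AD-ABR libraries were above both AD libraries for 66 nuclear genes and below for 1, against 29.6% and 23.9% of all genes, and the median log2 fold change was 0.23 against 0.00 over all genes. Of the ribosomal protein genes 66 of 82 were above (80.5%, beside 75.9% of the nuclear genes) and 0 below, with a median of 0.25. The gene nearest to the threshold was Sdhb, with 89.9 and 90.1 CPM in AD-ABR and 60.8 and 64.0 CPM in AD (0.49 ± 0.15, adjusted p = 0.0856). The nuclear share was 1.76 and 1.81% in AD-ABR and 1.43 and 1.54% in AD (exact p = 0.333). Of the RNA quality and dissociation genes 11 of 17 were lower in AD-ABR in these cells, with a median of −0.74, and their part in the shift was not tested. With 1 library left out, the difference in nuclear share ran from 0.242 to 0.351 percentage points, and some nuclear genes passed without either AD library. Of the mitochondrially encoded genes 0 of 13 passed and 2 had an unadjusted p under 0.05.

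The 17 nuclear genes that rose in smooth muscle-like cells were followed into the other classes. All 17 were positive in fibroblast-like cells (median log2 fold change 0.40) and in endothelial-like cells (0.37), with 15 and 16 of them apart. Over all tested nuclear genes of the set 84 of 91 and 77 of 87 were positive and 50 and 66 apart in that direction, and over all genes 22% and 29.6% were apart. In macrophage-like cells 13 were positive with a median of 0.11 and 5 apart, and in dendritic-like cells 15 with a median of 0.11 and 9 apart, beside 29.9% and 30.3% of all genes apart in that direction. Ndufab1 in fibroblast-like cells was the single one of these past the threshold outside smooth muscle-like cells. The classes come from the same 4 libraries and are not independent of each other.

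Macrophage-like cells showed another pattern. Of 90 tested nuclear genes 1 was lower in AD-ABR and 0 higher, beside 4.27% of all genes called lower and 3.97% called higher; 19 stood apart with AD-ABR higher and 23 with AD-ABR lower, against 29.9% and 25.1% of all genes, and the median was 0.01. The one called was Atp5k, subunit e of the ATP synthase, which holds its dimers together (ENSMUSG00000050856; chromosome 5, 108433244 to 108434448, minus strand, GRCm38), with 145 and 133 CPM in AD-ABR and 225 and 189 CPM in AD (−0.61 ± 0.15, adjusted p = 0.0477). Among the 13 mitochondrially encoded genes 2 were lower and 0 higher, 8 lay below both AD libraries and 1 above, and the median was −0.39. mt-Nd4 (ENSMUSG00000064363; mitochondrial genome, 10167 to 11544, plus strand) had 943 and 979 CPM in AD-ABR and 1302 and 1546 CPM in AD (−0.60 ± 0.15, adjusted p = 0.0476). mt-Nd5, another pumping subunit of complex I, had 294 and 272 CPM in AD-ABR and 389 and 433 CPM in AD (−0.57 ± 0.14, adjusted p = 0.0474). Both genes had AD-ABR clearly below AD. mt-Co3 lay the other way, at 27.9 and 27.1 CPM in AD-ABR and 19.6 and 22.6 CPM in AD (0.35 ± 0.16, adjusted p = 0.219).

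The mitochondrially encoded share of macrophage-like cells was 0.635 and 0.670% in AD-ABR and 0.780 and 0.927% in AD (exact p = 0.333), and the nuclear share overlapped at 1.47 and 1.56% in AD-ABR and 1.48 and 1.62% in AD. Cluster 12, led by Folr2, held 64.7 and 64.8% of this class in AD-ABR and 3.08 and 21.4% in AD, and cluster 13, led by Arg1, held 4.33 and 2.52% in AD-ABR and 39.1 and 44.6% in AD. Within cluster 12 alone the median over the mitochondrially encoded genes was −0.43 with 1 gene past the threshold, and within cluster 5 alone −0.35 with 0. The call of 2 mitochondrially encoded genes was lost without either AD-ABR library, without a limit on the mitochondrial share of a cell, and with doublets kept. More of these genes passed without either AD library.

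**Figure D4:**
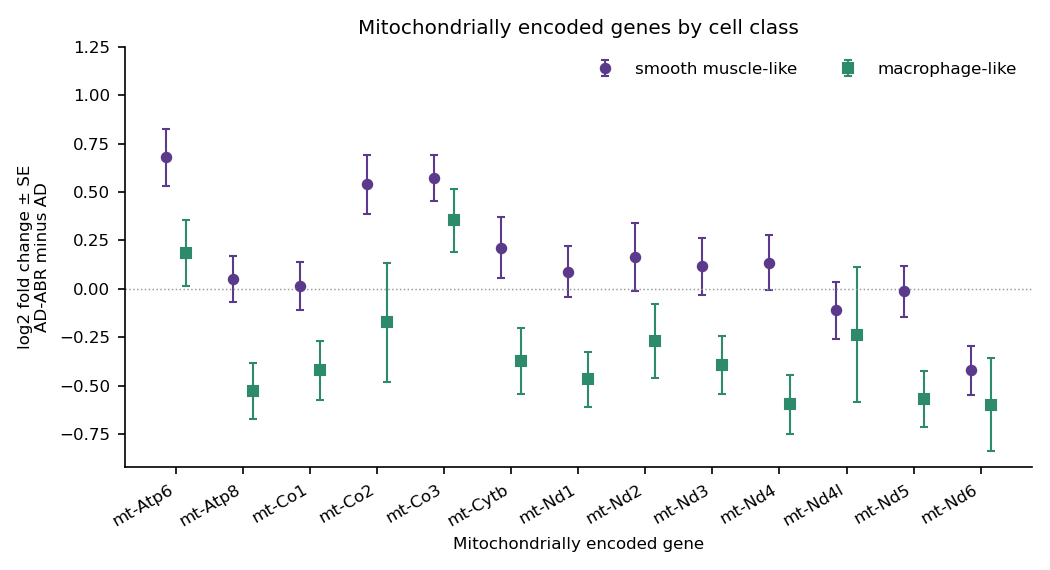
Log2 fold change (AD-ABR minus AD, y axis, bars show 1 SE from edgeR) of the 13 mitochondrially encoded genes (x axis) in smooth muscle-like cells (circles) and macrophage-like cells (squares). In macrophage-like cells 11 of the 13 points lie below 0, mt-Nd4 at −0.60 among them, while in smooth muscle-like cells 10 of the 13 lie above 0.

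In dendritic-like cells 0 of 87 nuclear genes and 0 of 12 mitochondrially encoded genes passed in edgeR or DESeq2. Of all genes 0.392% were called higher and 0.773% lower. An unadjusted p under 0.05 was reached by 7 of the 87 and 3 of the 12, beside 1392 of all 9704 genes tested. For 31 nuclear genes AD-ABR lay above both AD libraries and for 6 below, against 30.3% and 17.7% of all genes, and the median was 0.02. The largest change was of Ndufaf1, an assembly factor of complex I, with 6.45 and 7.69 CPM in AD-ABR and 2.90 and 2.61 CPM in AD (1.27 ± 0.52, adjusted p = 0.284). mt-Atp6 was at 55.9 and 78.2 CPM in AD-ABR and 37.2 and 49.2 CPM in AD (0.57 ± 0.24, adjusted p = 0.298).

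**Figure D5:**
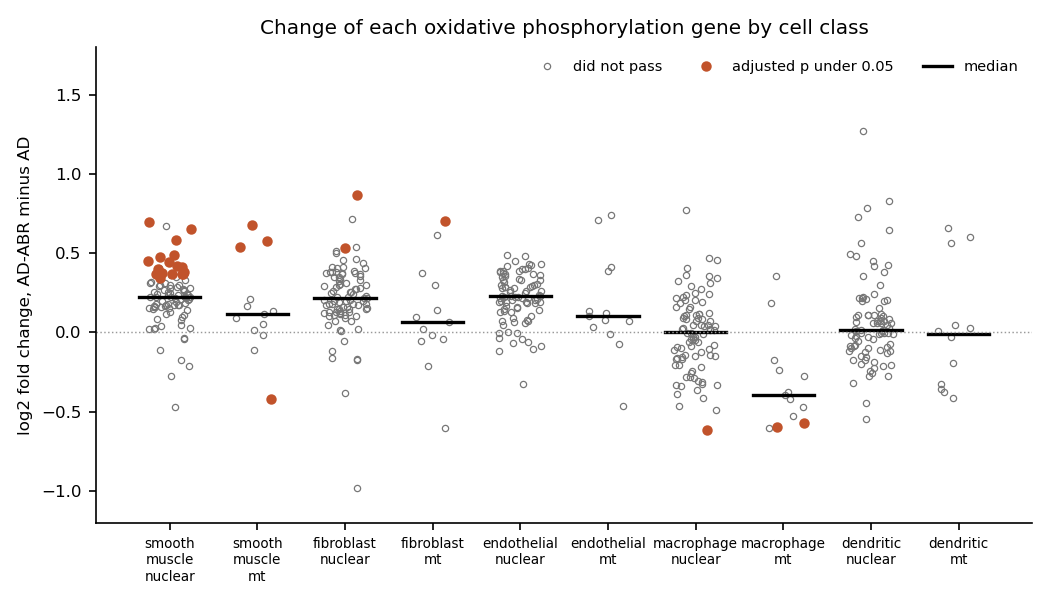
Log2 fold change (AD-ABR minus AD, y axis) of each tested gene by cell class, nuclear and mitochondrially encoded (mt) genes apart (x axis). Filled points passed an adjusted p of 0.05, open points did not, and lines are medians: 0.22, 0.22 and 0.23 for the nuclear genes of smooth muscle-like, fibroblast-like and endothelial-like cells, 0.01 and 0.02 for those of macrophage-like and dendritic-like cells.

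Whether the change differed between classes was tested as an interaction in edgeR with smooth muscle-like cells set against each of 3 classes. Against macrophage-like cells 7 of 105 genes differed, all in the direction of a higher change in smooth muscle-like cells, beside 2.32% of all genes in that direction and 2.63% in the other; the differences ran from 0.55 to 0.75 on the log2 scale. mt-Nd4 differed most, by 0.75 (adjusted p = 0.0199), with log2 fold changes of 0.14 in smooth muscle-like and −0.60 in macrophage-like cells. mt-Cytb differed by 0.61 (adjusted p = 0.0314), mt-Nd1 by 0.58 (adjusted p = 0.0495), and the nuclear genes were Uqcrq of complex III, Atp5e and Atp5g3 of the ATP synthase and Ndufa1 of complex I. Uqcrq had 246 and 267 CPM in AD-ABR and 240 and 226 CPM in AD in smooth muscle-like cells, and 223 and 230 CPM in AD-ABR and 294 and 296 CPM in AD in macrophage-like cells, so each class was apart in its own direction (difference 0.64, adjusted p = 0.0321). With another set of size factors (RLE) 2 mitochondrially encoded genes and 0 nuclear genes differed. Over all 14723 genes 255 had a higher and 388 a lower change in smooth muscle-like cells under RLE. The calls were lost without either AD-ABR library, and more genes passed without either AD library. Calls over all genes fell and rose in the same fits. With 1 library left out, the median difference ran from 0.24 to 0.34 over the nuclear genes and from 0.47 to 0.65 over the mitochondrially encoded genes. Against fibroblast-like cells 0 of 106 differed, beside 2.03 and 2.8% of all genes with a higher and a lower change in smooth muscle-like cells. Under RLE 1 nuclear gene passed, with a lower change in smooth muscle-like cells, as did 434 of all 15209 genes. Against endothelial-like cells 0 of 103 differed, beside 2.5 and 1.19% of all genes in the same order, and 0 differed under RLE.

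Genes around the respiratory chain were read from lists chosen with it. Of 38 assembly factors outside the rule, 5 were higher and 0 lower in smooth muscle-like cells (13.2% higher, beside 7.18% of all genes; median 0.20), among them Tmem70, which assembles the ATP synthase, at 35.9 and 40.7 CPM in AD-ABR and 25.1 and 32.2 CPM in AD (0.47 ± 0.14, adjusted p = 0.0311). In macrophage-like cells 2 of 37 were higher (5.41%, beside 3.97% of all genes), Higd2a and Surf1, both of cytochrome c oxidase assembly: Higd2a had 119 and 125 CPM in AD-ABR and 69.5 and 73.1 CPM in AD (0.75 ± 0.13, adjusted p = 0.0153). In fibroblast-like cells 1 of 38 was higher (2.63%, beside 2.26% of all genes), Ecsit, a complex I assembly factor (0.68 ± 0.17, adjusted p = 0.0492). In endothelial-like and dendritic-like cells 0 of 37 and 0 of 34 passed.

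Of 24 regulators of mitochondrial biogenesis and transcription, 2 were higher and 1 lower in smooth muscle-like cells, or 8.33 and 4.17%, beside 7.18% of all genes higher and 8.26% lower, so the list's counts were near or below those of all genes. Ppargc1a, a coactivator of mitochondrial biogenesis, had 3.31 and 3.04 CPM in AD-ABR and 8.97 and 6.28 CPM in AD (−1.15 ± 0.22, adjusted p = 0.00225), below AD in each library and opposite in direction to the nuclear subunits of the same cells. Mterf3, known as a repressor of mitochondrial transcription, rose by 0.54 ± 0.14 (adjusted p = 0.0169), and Sirt3, a mitochondrial deacetylase, by 0.45 ± 0.14 (adjusted p = 0.0395). In fibroblast-like cells Pprc1, a relative of Ppargc1a, was lower (1 of 24, or 4.17%, beside 2.8% of all genes; −0.69 ± 0.17, adjusted p = 0.0439), and in the remaining 3 classes none of this list passed. Of 18 carrier and cristae genes 2 were higher in smooth muscle-like cells (11.1%, beside 7.18% of all genes), Cycs, which is cytochrome c, at 120 and 122 CPM in AD-ABR and 94.1 and 96.5 CPM in AD (0.42 ± 0.11, adjusted p = 0.0172), and Vdac3, an outer membrane channel (0.43 ± 0.12, adjusted p = 0.023). In the other 4 classes 0 of the 18 passed.

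Of 16 genes of the tricarboxylic acid cycle 2 were higher in smooth muscle-like cells (12.5%, beside 7.18% of all genes), Idh3a and Dld, each at 0.35 on the log2 scale. In macrophage-like cells Fh1, the fumarase, was higher (0.80 ± 0.15, adjusted p = 0.0187) and Cs, the citrate synthase, lower (−0.65 ± 0.17, adjusted p = 0.0497), each 6.25% of the list beside 3.97% of all genes higher and 4.27% lower, and in the other 3 classes 0 of 16 passed. Of 21 glycolysis genes 1 was higher (4.76%, beside 7.18% of all genes) and 3 lower (14.3%, beside 8.26%) in smooth muscle-like cells. Pdk4, a kinase that restrains pyruvate dehydrogenase, rose by 0.60 ± 0.18 (adjusted p = 0.0494), and Slc16a1, a lactate carrier, Pfkfb3 and Pfkm were lower. In macrophage-like cells 13 of 20 glycolysis genes were lower and 0 higher (65% lower, beside 4.27% of all genes), with a median of −0.77. Slc2a1, the glucose transporter, had 12.3 and 12.9 CPM in AD-ABR and 97.7 and 50.6 CPM in AD (−2.60 ± 0.38, adjusted p = 0.0194), and Pgk1 had 75.5 and 71.7 CPM in AD-ABR and 230 and 201 CPM in AD (−1.58 ± 0.15, adjusted p = 0.00126). Within cluster 5 alone 0 of 19 passed with a median of −0.13, and within cluster 12 alone 1 was higher and 1 lower of 17. In fibroblast-like cells Hk2 (−0.98 ± 0.18, adjusted p = 0.0224) and Slc2a1 (−0.88 ± 0.18, adjusted p = 0.0291) were lower (9.52% of the list, beside 2.8% of all genes), and in endothelial-like and dendritic-like cells 0 of 19 and 0 of 18 passed.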

How the data were processed

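The authors deposited 1 matrix of UMI counts per gene and barcode for each of 4 libraries, whole numbers without normalization. STAR, Cell Ranger 6.0, Seurat 4.0 and GRCm38 are named per the submitters' processing notes, while version 7.1.0 of that program stands in the matrices per the file headers; the annotation release used for counting was not given in the sources used here. Barcodes with fewer than 200 detected genes or with 20% or more mitochondrial UMIs were left out, and doublets were removed by Scrublet score up to 0.8% per 1000 barcodes. The mitochondrial limit acts on the same transcripts as the mitochondrially encoded genes compared here. It took out 1.22 and 1.21% of barcodes in AD-ABR and 1.20 and 4.15% in AD. Clustering (scanpy 1.11.5, 2000 variable genes without members or mt- genes, 30 components, 15 neighbours, Leiden resolution 1.0, leidenalg 0.10.2) gave 30 clusters, named from marker lists if 3 or more markers were present in 10% of cells and averaged a log2 fold of 1 or more. Counts were summed per library and class and tested with edgeR 4.0.16 in R 4.3.3 (TMM, filterByExpr, robust quasi-likelihood F test, Benjamini-Hochberg over all genes of the class, threshold 0.05) as AD-ABR minus AD; all adjusted p-values are from this test, and SE is the log2 change over √F. CPM and the counts of genes whose libraries stand apart use unscaled library totals, while log2 changes use totals scaled by TMM. The 2 measures are therefore not on the same scale, and small changes can differ in sign. Counting used 3′ UMIs, so levels of 2 genes are set against each other only as UMIs, without length scaling. Coordinates come from GENCODE M21 on GRCm38. The test was tried on simulated counts. Named genes were the 10 nuclear genes with the largest change past the test, all mitochondrially encoded genes, the isoform pairs, the Sdh genes and at most 6 companion genes a class; others named, such as Ndufs1, Cox4i1, Atp5g3, Ndufaf1 and the 7 smaller calls, were chosen after their values were seen. The members and lists were chosen with earlier results of these data known. Alternatives were DESeq2 1.42.0, RLE factors, no filter, other cell filters and clusterings, leaving out a library, and single clusters; the last was chosen after seeing the data.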

Additional observations from a re-analysis of the deposited data

Results flagged for a closer look

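The change between AD-ABR and AD differed between smooth muscle-like and macrophage-like cells for 7 genes by the interaction test in edgeR. mt-Nd4 differed by 0.75 on the log2 scale (adjusted p = 0.0199), Uqcrq by 0.64 (adjusted p = 0.0321), mt-Cytb by 0.61 (adjusted p = 0.0314) and Atp5e by 0.61 (adjusted p = 0.0381). mt-Nd1 differed by 0.58 (adjusted p = 0.0495), Atp5g3 by 0.56 and Ndufa1 by 0.55 (adjusted p = 0.0488 for both). In each case the log2 fold change was positive in smooth muscle-like cells, from 0.09 for mt-Nd1 to 0.27 for Atp5e, and negative in macrophage-like cells, from −0.28 for Ndufa1 to −0.60 for mt-Nd4. In macrophage-like cells both AD-ABR libraries lay below both AD libraries for all 7 genes. In smooth muscle-like cells the groups overlapped for mt-Nd4, mt-Cytb and mt-Nd1 and stood apart for Uqcrq, Atp5e, Atp5g3 and Ndufa1. These differences were lost without AD-ABR library 1 or without AD-ABR library 2, where calls over all genes fell too. With RLE size factors the nuclear genes Uqcrq, Atp5e, Atp5g3 and Ndufa1 no longer passed and 2 mitochondrially encoded genes did. The clusters that make up the macrophage-like class differed between the groups, and their part in these differences was not tested.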

How the results depend on the processing

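None of the 27 named calls changed direction in any setting, and Ndufab1, mt-Co3 and mt-Atp6 passed in every setting in smooth muscle-like cells. Some mitochondrially encoded genes that were not called did: 10 of 13 were positive in smooth muscle-like cells, and 7 without AD library 1 or without AD-ABR library 1. Leaving out 1 library moved the genes called, in either direction, as follows: nuclear, 2 to 32 in smooth muscle-like, 1 to 39 in fibroblast-like, 0 to 27 in endothelial-like and 0 to 8 in macrophage-like cells; mitochondrially encoded, 2 to 5, 0 to 3, 0 to 2 and 0 to 7 in the same order. Without AD-ABR library 2, 22 of 27 named calls were lost, and 14 were lost without AD library 1. The interaction count ran from 0 to 2 against fibroblast-like, 0 to 1 against endothelial-like and 0 to 30 against macrophage-like cells, and with RLE it was 1 against fibroblast-like and 2 against macrophage-like cells. The cause of each move was not tested.

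In smooth muscle-like cells (17 nuclear, 4 mitochondrially encoded) the nuclear count was 8 with a mitochondrial share below 10% and with no limit, 9 when clustering used the members, and 8 and 4 within clusters 0 and 1; the mitochondrially encoded count was 2 with DESeq2 and 2 within cluster 1. In fibroblast-like cells (2 and 1) the nuclear count was 1 with DESeq2, 11 with no filter, 6 with no mitochondrial limit, 4 when clustering used the members, 5 at Leiden resolution 0.5 and 0 within clusters 3, 7 and 10; the mitochondrially encoded count was 3 with no filter, 2 with doublets kept, 2 when clustering used the members, 2 at resolution 0.5, 2 within cluster 7 and 0 within clusters 3 and 10. In macrophage-like cells (1 and 2) the nuclear count was 2 with no filter and 0 with doublets kept and within clusters 5 and 12; the mitochondrially encoded count was 4 with no filter, 0 with no mitochondrial limit, 0 with doublets kept, 1 at resolution 0.5, 0 within cluster 5 and 1 within cluster 12. With no filter 1 nuclear gene passed in dendritic-like cells.

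Differences in share of UMIs (percentage points, AD-ABR minus AD) that turned sign were small. In smooth muscle-like cells the mitochondrially encoded difference was 0.0953, ran from −0.0836 to 0.274 with 1 library left out, and was −0.0296 within cluster 1. In fibroblast-like cells it was 0.0469, from −0.00421 to 0.098, and −0.0201 and −0.0634 within clusters 7 and 10. In macrophage-like cells the nuclear difference was −0.0372, from −0.106 to 0.0316, and 0.0329 as a mean over cells and 0.0227 and 0.0251 within clusters 5 and 12. In dendritic-like cells the nuclear difference was 0.0763, and −0.0078 with mt- genes and Rn18s-rs5 left out of the total; the mitochondrially encoded one was 0.00338, from −0.0164 to 0.0232, and −0.0251 with that total, −0.00721 as a mean over cells, −0.00827 with no mitochondrial limit and −0.00322 with doublets kept.

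Libraries of the 2 groups share replicate numbers. Deviations of same-numbered libraries correlated at −0.003 to 0.126 over genes, and with 2 pairs the numbers were not taken to pair them. With a replicate block the nuclear counts were 38 in smooth muscle-like, 8 in fibroblast-like, 5 in endothelial-like and 3 in macrophage-like cells, and the mitochondrially encoded counts 3 in fibroblast-like and 4 in macrophage-like cells. With 2 libraries a group and pericyte-like cells at 16 to 56 a library, small differences were not detectable.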
